A study of Mus musculus with 9 samples.

Results

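Cadherins and non-clustered protocadherins were examined in bulk RNA-seq of mouse cerebral cortex at postnatal day 0 (P0). A gene was included when its symbol was Cdh or Pcdh followed by a number, with an optional x for X-linked Pcdh11x. Of the 24624 genes in the table, 34 met this rule, of which 22 were cadherins and 12 were non-clustered protocadherins. Cdh16, the kidney cadherin, was not among the symbols analysed here.

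The libraries came from 3 Fezf2+/+ mice, 4 Fezf2-/- mice and 2 Fezf2-/-; Fezf2-EnR mice, with 1 mouse per library and both cortical hemispheres in each RNA sample. All pups came from crosses of Fezf2+/- with Fezf2+/-; Fezf2-EnR parents, and the labels place them in 3 litters. Fezf2 encodes a zinc-finger transcription factor of deep-layer projection neurons. Fezf2-EnR is a BAC transgene for a chimeric protein, made of the engrailed repressor domain and the zinc-finger part of FEZF2, inserted at the Fezf2 start codon, so that it lies under the regulatory sequence of Fezf2 and is 1 transgenic line. The design asks which genes differ when Fezf2 is lost, and whether a repressor form of FEZF2 alters their level in its absence. In litter m1 there were 2 mice each of Fezf2+/+ and Fezf2-/-. Litter m2 gave 1 mouse of Fezf2+/+ and 1 that was Fezf2-/-; Fezf2-EnR. The 3 mice of litter m3 were 2 Fezf2-/- and 1 Fezf2-/-; Fezf2-EnR. Genotype and litter therefore overlap in part. No genotype occurs in all 3 litters.

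Cadherins are calcium-dependent adhesion proteins. Classical cadherins bind their like on the neighbouring cell, and their cytoplasmic tails bind β-catenin and p120-catenin, which connect them through α-catenin to actin. Type I cadherins such as N-cadherin hold neuroepithelium and synapses together, and type II cadherins are transcribed in patterns that differ between cortical areas, layers and neuronal types. The δ1 and δ2 protocadherins are single genes, unlike the clustered protocadherins. They lack the catenin-binding tail, and several δ2 members bind the WAVE complex, which drives actin assembly. Differences in cadherin expression are known to contribute to sorting of neurons and to the choice of synaptic partners.

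Values are normalized expression, which is the number of reads of a gene divided by the size factor of the library. Fold changes are on the log2(value + 1) scale and are positive where the group named first was higher. Across the libraries the normalized values summed to between 20097781 and 21058156. Fezf2 itself was at 1232, 1010 and 979 in Fezf2+/+, between 193 and 242 in Fezf2-/-, and at 907 and 1001 in Fezf2-/-; Fezf2-EnR, where reads of the transgene and of Fezf2 cannot be told apart. GABAergic interneuron markers (9 genes, summed) ranged from 8793 to 9216 in Fezf2+/+, from 11580 to 12354 in Fezf2-/-, and were 10039 and 8891 in the Fezf2-/-; Fezf2-EnR replicates bc208 and bc209. Of these 9 markers, 8 were higher in Fezf2-/- than in Fezf2+/+ at an unadjusted p under 0.05, against 6.61% of all genes. The adjusted threshold was passed by 0 in limma or edgeR and by 4 in DESeq2, which called 315 of all genes. Oligodendrocyte precursor markers (5 genes, summed) were likewise highest in Fezf2-/-, at 5512 to 5780, against 4849 to 5148 in Fezf2+/+ and 5391 and 5411 in Fezf2-/-; Fezf2-EnR. Thalamic neuron markers (7 genes, summed) were at 1757 to 1908 in Fezf2+/+, at 1959 to 2343 in Fezf2-/-, and at 1982 and 1703 in replicates bc208 and bc209. Of these 7, limma called Slc17a6 higher in Fezf2-/- than in Fezf2+/+ (log2 fold change 0.59, adjusted p = 0.037). Striatal markers (7 genes, summed) reached 3472 in Fezf2-/- replicate bc204 and 2572 in Fezf2-/-; Fezf2-EnR replicate bc208, against 1032 to 1789 in the other libraries. Radial glia markers (8 genes, summed) ranged from 14831 to 16189 in Fezf2+/+, from 15915 to 18917 in Fezf2-/- and from 18986 to 19234 in Fezf2-/-; Fezf2-EnR. Cortical projection neuron markers (8 genes, summed) were at 83192 to 84028 in Fezf2+/+, at 72046 to 89475 in Fezf2-/-, and at 74178 and 90636 in Fezf2-/-; Fezf2-EnR, so that the labelled tissue carried its markers. Of these 8, limma called Emx1 lower in Fezf2-/- than in Fezf2+/+ (log2 fold change -0.44, adjusted p = 0.030). Summed choroid plexus markers stayed between 8 and 34, with 4 of 6 under 10 in every library. In bulk RNA, fewer cells of a type and less RNA per cell cannot be told apart. The part of these marker levels in the values below was not tested.

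The table holds the Y-linked RNA of Ddx3y at 1169 or more in all 4 Fezf2-/- libraries and in 2 Fezf2+/+ libraries, and at 0 in both Fezf2-/-; Fezf2-EnR libraries, where Xist was at 12203 and 7895. Sex and genotype therefore cannot be told apart between Fezf2-/-; Fezf2-EnR and Fezf2-/-. They overlap in part in both comparisons with Fezf2+/+, where not all Fezf2+/+ libraries held Ddx3y at that level. The part of sex in the differences below was not tested. Pcdh11x and Pcdh19 are themselves X-linked.

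Promoter sequence was available for 22 of the 34 members, and those of the 3 members described next show how unlike the start regions of the family are. These are Cdh10 and Cdh18, type II cadherins on chromosome 15 whose Fezf2-/- values lay on opposite sides of wild type, and Pcdh17, the δ2 member with a separate Fezf2-/- range. The 250 bases upstream of the RefSeq start in GRCm38.p6 are printed 5′ to 3′ on the coding strand, with each CG in capitals. The Cdh10 stretch is chr15:18820079-18820328 (+) and lies inside the longer GENCODE M21 gene, clear of its exons. The Cdh18 stretch is chr15:23036213-23036462 (+), with 8 annotated exon bases. It lies far inside the GENCODE M21 gene, which starts at 22549022, so it precedes an internal start. The Pcdh17 stretch is chr14:84443313-84443562 (+).
Cdh10: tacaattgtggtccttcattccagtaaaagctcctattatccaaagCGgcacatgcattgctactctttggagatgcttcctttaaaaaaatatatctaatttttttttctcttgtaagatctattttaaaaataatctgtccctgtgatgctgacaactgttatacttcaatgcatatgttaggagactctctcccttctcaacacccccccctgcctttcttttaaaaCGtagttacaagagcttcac
Cdh18: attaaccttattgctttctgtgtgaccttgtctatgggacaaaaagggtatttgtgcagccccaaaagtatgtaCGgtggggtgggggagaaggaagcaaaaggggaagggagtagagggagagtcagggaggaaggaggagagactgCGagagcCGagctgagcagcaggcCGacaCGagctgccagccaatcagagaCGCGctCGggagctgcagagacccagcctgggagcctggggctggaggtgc
Pcdh17: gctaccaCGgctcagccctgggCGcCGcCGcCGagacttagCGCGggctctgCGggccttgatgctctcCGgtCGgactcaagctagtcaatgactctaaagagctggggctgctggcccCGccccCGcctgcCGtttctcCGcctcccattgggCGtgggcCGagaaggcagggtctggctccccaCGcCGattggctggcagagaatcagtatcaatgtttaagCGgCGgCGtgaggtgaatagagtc
Upstream of Cdh10 there are 2 CG, against 8 for Cdh18 and 21 for Pcdh17. The median was 10 over the 25 promoters of members and 6 over all 32851 promoters in the RefSeq table. GGGCGG, searched on both strands, occurred in the Pcdh17 stretch and in 9 of the 25 member promoters, against 32.7% of all promoters of the same length. These counts describe the letters of the windows, and no factor binding was measured.

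In the wild-type cortex, N-cadherin had the highest level of the 34 members. To compare genes, values were divided by the summed exon length of the gene in kb. Cdh2 (N-cadherin, the main adhesion protein of neuroepithelium) was at 1128 ± 94 normalized reads per kb (SD, n = 3), and its lowest Fezf2+/+ library lay above every library of the next gene. Cdh4 (R-cadherin) followed at 468 ± 58, then Cdh13 (T-cadherin, which is held by a lipid anchor and has no catenin-binding tail) at 405 ± 11, Pcdh7 at 396 ± 13 and Pcdh9 at 370 ± 30. In this order the libraries of Cdh4, Cdh13, Pcdh7 and Pcdh9 overlapped between neighbours, while the lowest Cdh4 library (405 per kb) lay above the highest Pcdh9 library (403 per kb). Cdh6, a type II cadherin, was at 317 ± 10 per kb and lay below all Pcdh9 libraries. Pcdh8 (also known as arcadlin) was at 279 ± 30, Cdh8 at 242 ± 18, Pcdh10 (OL-protocadherin) at 235 ± 16 and Cdh11 at 233 ± 25, each overlapping the next. Along the whole order of 34 members, 24 of 33 neighbouring pairs overlapped and 9 did not.

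**Figure D1:**
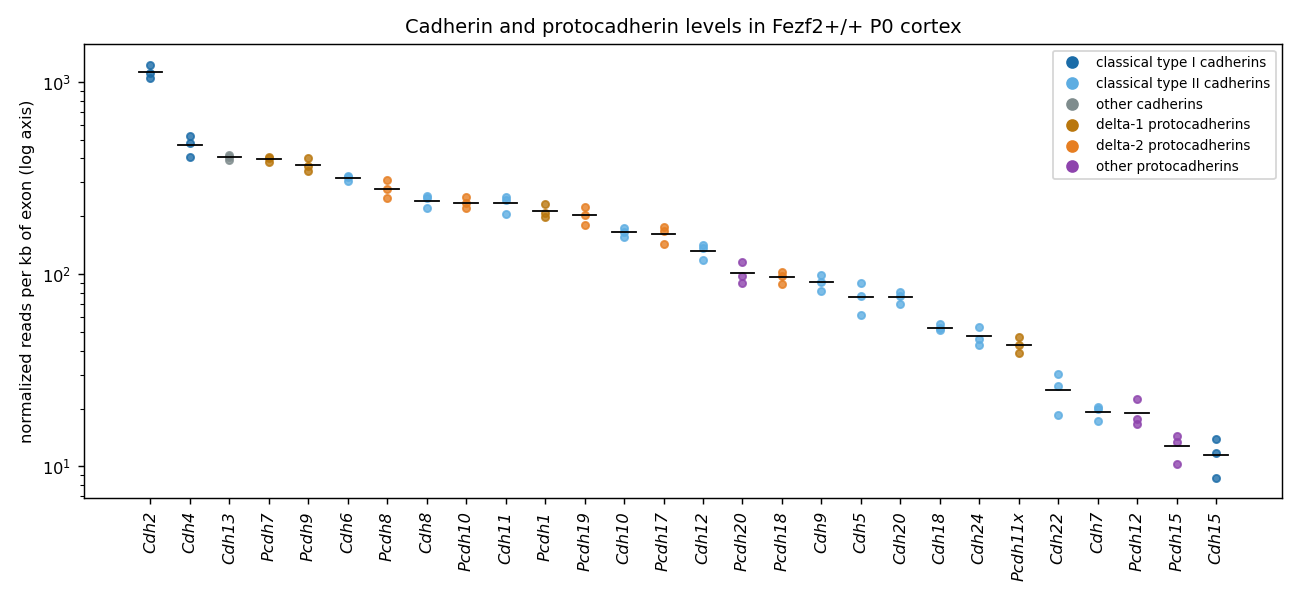
Normalized reads per kb of exon (log axis) for the 28 tested members in the 3 Fezf2+/+ libraries (points) and their mean (line), coloured by class and ordered by mean. Cdh2 at 1128 stands above Cdh4 at 468, and Cdh15 at 11.5 is the lowest tested member.

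By class, the 5 type I cadherins held 28.6% of the summed wild-type level per kb and the 13 type II cadherins 26.3%. The 4 δ1 protocadherins held 18.2%, the 5 δ2 protocadherins 17.4%, the 4 other cadherins 7.23% and the 3 other protocadherins 2.36%. Most of the type I share was Cdh2, whereas the type II share was spread over more genes. Type II levels ran from Cdh6 down to Cdh7 at 19.2 ± 1.7 per kb (SD, n = 3) and Cdh19 at 0.065 ± 0.113. Cdh5 (VE-cadherin) and Pcdh12, both known from endothelium, were at 76.0 ± 14.5 and 18.9 ± 3.0 per kb. The endothelial markers (8 genes, summed) were at 2586 to 3126 in Fezf2+/+, 2788 to 3477 in Fezf2-/- and 2594 to 2812 in Fezf2-/-; Fezf2-EnR.

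With a mean of at least 10 over the 9 libraries, 28 members were tested, and 6 were not. The 6 were Cdh1 (E-cadherin of epithelia), Cdh3 (P-cadherin), Cdh17 (an intestinal cadherin), Cdh19, Cdh23 (a component of hair-cell tip links) and Cdh26. Each of them had at most 32 reads in any library. For Cdh1, the Fezf2+/+ libraries held 14, 4 and 4 reads, the Fezf2-/- libraries 2, 1, 0 and 1, and the Fezf2-/-; Fezf2-EnR replicates bc208 and bc209 held 32 and 3. Its largest count was thus in 1 library of the group whose other library was near the rest. For Cdh23, there were 6, 5 and 5 reads in Fezf2+/+, 10, 7, 8 and 15 in Fezf2-/-, and 8 and 3 in Fezf2-/-; Fezf2-EnR. Normalized values did not overlap between Fezf2-/- and Fezf2+/+ for Cdh23, higher in Fezf2-/-, and for Cdh1, lower in Fezf2-/-. The read numbers of both were too low for the test applied here. Cdh26, the second most abundant untested member per kb, held between 0 and 7 reads in every library.

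In limma, no cadherin or protocadherin passed the adjusted threshold when Fezf2 was lost. In Fezf2-/- against Fezf2+/+, it called 0 of the 28 tested members at a Benjamini-Hochberg adjusted p under 0.05, against 0.858% of all genes tested. On recovered whole reads, edgeR and DESeq2 each called 1 member, Cdh10, and they called 142 and 315 of all genes. At an unadjusted p under 0.05 there were 9 members, or 32.1%, against 10.8% of all genes. Of these, 7 were higher in Fezf2-/- (Cdh4, Cdh10, Cdh13, Pcdh1, Pcdh10, Pcdh15 and Pcdh17; background 6.61%) and 2 were lower (Cdh18 and Pcdh7; background 4.21%). The Fezf2-/- and Fezf2+/+ libraries did not overlap in 6 members, or 21.4%, against 13.0% of all genes, with 4 higher (background 6.53%) and 2 lower (background 6.46%). The median log2 fold change of the 28 members was 0.10, and that of all genes was 0.00. The share of members past the unadjusted threshold was thus above the background. Of the higher members, Cdh13, Pcdh1, Pcdh10 and Pcdh17 were also highest in litter m3, which held no Fezf2+/+ mouse. With litter as a block, their log2 fold changes went from 0.23, 0.46, 0.26 and 0.34 to 0.13, 0.22, 0.15 and 0.18. That of Cdh10 stayed at 0.31. Genotype and litter cannot be fully told apart in this share.

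**Figure D2:**
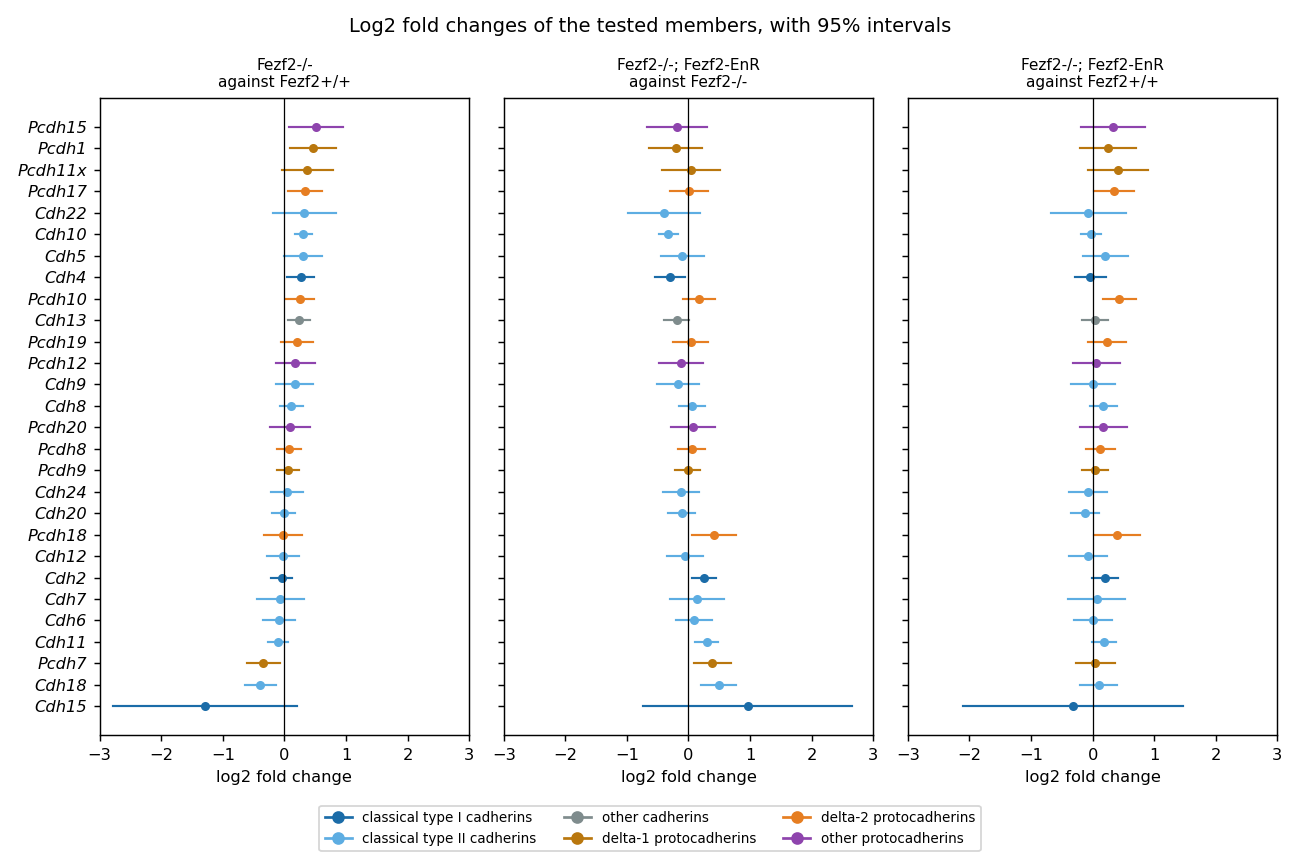
Log2 fold change (points) and 95% interval (lines) of the 28 tested members in each of the 3 comparisons, ordered by the comparison on the left and coloured by class. In each comparison 27 of 28 intervals lie within a 2-fold change, and that of Cdh15 does not.

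Cdh10, a type II cadherin (chr15:18818947-19014236, +), was closest to the threshold. Its normalized values were 1742, 1671 and 1577 in Fezf2+/+, 1933, 2019, 2192 and 2081 in Fezf2-/-, and 1627 and 1637 in Fezf2-/-; Fezf2-EnR. All 4 Fezf2-/- values exceeded those of the 5 libraries of the other genotypes. The log2 fold change between Fezf2-/- and Fezf2+/+ was 0.31 ± 0.06 (SE), a 1.24-fold difference with an adjusted p of 0.054 in limma. The difference was 0.30 within litter m1, and with edgeR the adjusted p was 0.0497. Against Fezf2-/-, Fezf2-/-; Fezf2-EnR gave a log2 fold change of -0.33 ± 0.07 (adjusted p = 0.068), and within litter m3 it was -0.30. DESeq2 called both differences, with adjusted p of 0.0015 and 0.0027. Over the fits that each left out 1 library, the limma adjusted p of the first difference ran from 0.048 to 0.2275. Between Fezf2-/-; Fezf2-EnR and Fezf2+/+ the log2 difference was -0.03, with a 95% interval from -0.19 to 0.14. These comparisons share libraries, so they are not independent. The summed GABAergic markers given above were likewise highest in the 4 Fezf2-/- libraries, as were the oligodendrocyte precursor markers, and the part of either in the Cdh10 values was not tested.

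Cdh18, a type II cadherin on the same chromosome as Cdh10, with Cdh12 between them (chr15:22549022-23474418, +), ran the other way. It was at 233, 238 and 250 in Fezf2+/+, at 159, 175, 182 and 220 in Fezf2-/-, and at 257 and 259 in Fezf2-/-; Fezf2-EnR. All Fezf2-/- libraries were below all others. The log2 fold change was -0.39 ± 0.11 between Fezf2-/- and Fezf2+/+ (adjusted p = 0.214) and 0.49 ± 0.13 with the transgene against Fezf2-/- (adjusted p = 0.122). It was -0.39 within litter m1 and 0.46 within litter m3. Neither difference passed the adjusted threshold by any of the 3 tools.

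Pcdh7, a δ1 protocadherin (chr5:57717967-58133230, +), was the other member with lower Fezf2-/- values. Its Fezf2+/+ libraries were at 4255, 4038 and 4305, its Fezf2-/- libraries at 2816, 3282, 3451 and 3782, and its Fezf2-/-; Fezf2-EnR replicates bc208 and bc209 at 3630 and 5146. The Fezf2-/- range lay below Fezf2+/+, while bc208 fell inside it. In Fezf2-/- against Fezf2+/+ the log2 fold change was -0.34 ± 0.12 (adjusted p = 0.321). With litter as a block it was -0.21 (adjusted p = 0.581), and within litter m1 alone it was -0.30 and passed the threshold (adjusted p = 0.0499). The transgene group against Fezf2-/- gave 0.38 ± 0.14 (adjusted p = 0.209), and 0.15 within litter m3. Without replicate bc208 it was 0.64, with bc209 of litter m2 as the only transgene library. Litter m2 held no Fezf2-/- mouse, so litter and genotype cannot be told apart in that difference. An exon of 4932441J04Rik overlaps an exon of Pcdh7, and whether counting used strand is not given in the sources used here, so its value is uncertain to that extent.

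Of the 4 members with higher, non-overlapping Fezf2-/- values, Cdh4 and Cdh13 were near each other in size. Cdh4 (chr2:179442431-179899373, +) was at 3478, 3776 and 2941 in Fezf2+/+, at 3816, 3840, 4456 and 4180 in Fezf2-/-, and at 3631 and 3000 in Fezf2-/-; Fezf2-EnR. The gap between the genotypes was narrow, from 3776 to 3816. The log2 fold change was 0.27 ± 0.10 between Fezf2-/- and Fezf2+/+ (adjusted p = 0.347) and -0.30 ± 0.11 with the transgene against Fezf2-/- (adjusted p = 0.223). Cdh13 (chr8:118283733-119324921, +) was at 4559, 4668 and 4419 in Fezf2+/+, at 5200, 5103, 5113 and 6008 in Fezf2-/-, and at 5169 and 4225 in Fezf2-/-; Fezf2-EnR. Against Fezf2+/+, Cdh13 in Fezf2-/- gave a log2 fold change of 0.23 ± 0.08 (adjusted p = 0.311), and 0.13 with litter as a block. For Cdh13 in Fezf2-/-; Fezf2-EnR against Fezf2-/- it was -0.19 ± 0.09 (adjusted p = 0.309).

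Pcdh17, a δ2 protocadherin on chromosome 14 (chr14:84443563-84539002, +), completed the group. It was at 2182, 1866 and 2287 in Fezf2+/+, at 2764, 2460, 2381 and 3104 in Fezf2-/-, and at 3135 and 2280 in the Fezf2-/-; Fezf2-EnR replicates bc208 and bc209. The library bc208 was just above the highest Fezf2-/- library, and bc209 lay within Fezf2+/+. The log2 fold change was 0.34 ± 0.12 between Fezf2-/- and Fezf2+/+ (adjusted p = 0.343), and 0.18 with litter as a block. The transgene group against Fezf2+/+ gave 0.35 ± 0.15 (adjusted p = 0.241), and 0.12 without bc208. Pcdh17 shares chromosome 14 with Fezf2, at a distance of 72.1 Mb, and with Cdh24, Pcdh8, Pcdh9 and Pcdh20. The others lie between 42.3 Mb (Cdh24) and 80.7 Mb (Pcdh9) from Fezf2. Alleles linked to the targeted locus were not examined here. Of these 5 members, only Pcdh17 had separate ranges in Fezf2-/- and Fezf2+/+.

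**Figure D3:**
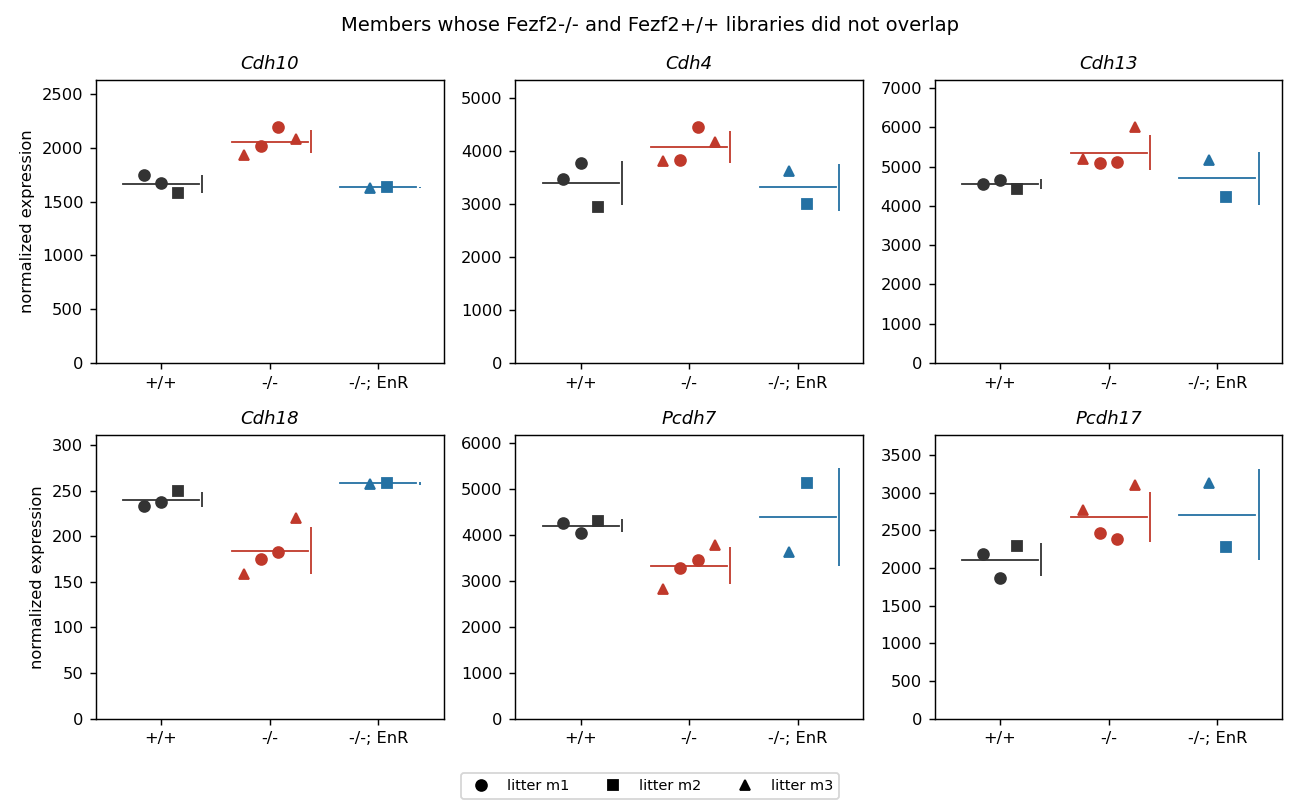
Normalized expression in each of the 9 libraries for the 6 members whose Fezf2-/- and Fezf2+/+ libraries did not overlap, with horizontal lines for the mean, vertical lines for ± SD and marker shapes for litters. Cdh10 in Fezf2-/-; Fezf2-EnR (1627 and 1637) lies in the Fezf2+/+ range, whereas Pcdh17 there is at 3135 and 2280.

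Smaller differences were measured in other abundant members. Cdh2 was at 9921, 8950 and 8429 in Fezf2+/+, at 8341, 8867, 8850 and 9107 in Fezf2-/-, and at 9397 and 11637 in Fezf2-/-; Fezf2-EnR. Its log2 difference in Fezf2-/- was -0.05, with a 95% interval from -0.22 to 0.13. Both Fezf2-/-; Fezf2-EnR libraries were above the Fezf2-/- range (log2 fold change 0.25 ± 0.09, adjusted p = 0.215), and within litter m3 the difference was 0.11. Without bc208 it was 0.41, with bc209 of litter m2 as the only transgene library. Litter m2 held no Fezf2-/- mouse. Pcdh9 was at 2735, 2337 and 2463 in Fezf2+/+, 2373, 2447, 2755 and 2865 in Fezf2-/-, and 2650 and 2521 in Fezf2-/-; Fezf2-EnR. Its groups overlapped throughout (log2 difference in Fezf2-/- of 0.05, interval -0.12 to 0.23). Cdh6 was at 2757, 2931 and 2881 in Fezf2+/+, 2098, 2821, 2797 and 3133 in Fezf2-/-, and 2652 and 3095 in Fezf2-/-; Fezf2-EnR, with a log2 difference in Fezf2-/- of -0.09 (interval -0.35 to 0.17). One Fezf2-/- library, bc204, was low for Cdh6, and the others lay around Fezf2+/+.

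Cdh8, Pcdh8, Pcdh20 and Pcdh12 also overlapped between Fezf2-/- and Fezf2+/+. Cdh8, a type II cadherin patterned across cortical areas, was at 1970, 1713 and 1924 in Fezf2+/+, 2295, 1845, 2033 and 1938 in Fezf2-/-, and 2184 and 2028 in Fezf2-/-; Fezf2-EnR. On the log2 scale it differed by 0.12 ± 0.08 in Fezf2-/- and 0.17 ± 0.10 in Fezf2-/-; Fezf2-EnR, both against Fezf2+/+ (adjusted p = 0.678 and 0.357). Pcdh8 was at 1260, 1401 and 1131 in Fezf2+/+, 1241, 1345, 1227 and 1488 in Fezf2-/-, and 1367 and 1376 in Fezf2-/-; Fezf2-EnR. The spread of Pcdh8 within Fezf2+/+ exceeded its mean shift in Fezf2-/- (log2 0.07 ± 0.09). Pcdh20 was at 495, 534 and 632 in Fezf2+/+, 490, 604, 524 and 770 in Fezf2-/-, and 606 and 634 in Fezf2-/-; Fezf2-EnR. Pcdh12, also on the endothelial side, was at 135, 101 and 106 in Fezf2+/+, 111, 138, 121 and 145 in Fezf2-/-, and 127 and 109 in Fezf2-/-; Fezf2-EnR. Neither gene separated the genotypes.

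Precision set what could be seen. For 27 of the 28 members the 95% interval of the log2 fold change lay within a 2-fold difference in each comparison. In Fezf2-/- against Fezf2+/+, 19 of the 28 intervals lay within 1.5-fold. With the transgene, this held for 21 against Fezf2-/- and 20 against Fezf2+/+. The exception to the 2-fold limit was Cdh15.

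With the FEZF2-EnR transgene, too, no member passed the adjusted threshold in limma. Against Fezf2-/-, it called 0 of 28, against 0.766% of all genes, while edgeR called 0, and DESeq2 called 1 (Cdh10). Of all genes, edgeR called 114 and DESeq2 450. At an unadjusted p under 0.05 there were 7 members (Cdh2, Cdh4, Cdh10, Cdh11, Cdh18, Pcdh7 and Pcdh18), or 25.0%, against 16.9% of all genes. The libraries of the groups did not overlap in 6 members, or 21.4%, against 24.6% of all genes, which is near the background. Cdh11, a type II cadherin also made by mesenchyme, was at 1975, 1892, 1918 and 1901 in Fezf2-/- and at 2477 and 2241 in Fezf2-/-; Fezf2-EnR. Its Fezf2-/- libraries were close together and below both others, with a log2 fold change of 0.29 ± 0.09 (adjusted p = 0.153). Pcdh18, a δ2 protocadherin, was at 537, 399, 480 and 656 in Fezf2-/- and at 675 and 683 in Fezf2-/-; Fezf2-EnR (log2 fold change 0.41 ± 0.16, adjusted p = 0.236). The meningeal fibroblast markers (8 genes, summed) were at 339 to 567 in Fezf2-/- and at 551 and 304 in the Fezf2-/-; Fezf2-EnR replicates bc208 and bc209. Of these 8, limma called Lum, which was at 1.04 to 4.36 in Fezf2-/- and at 24.9 and 13.1 with the transgene (log2 fold change 2.30, adjusted p = 0.043). In Fezf2+/+ it was at 17.9 to 22.8, and it was called lower in Fezf2-/- (log2 fold change -2.40, adjusted p = 0.018). The list did not follow Lum in the main fit. Of its 7 tested markers, 6 were positive in Fezf2-/- against Fezf2+/+ (median log2 fold change 0.01). With the transgene against Fezf2-/-, 3 of the 7 were positive (median -0.03). With litter as a block, 0 and 6 of the 7 were positive in these comparisons, with medians of -0.09 and 0.46. The part of meningeal cells in the Cdh11 and Pcdh18 values was not tested.

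Compared with wild type, Fezf2-/-; Fezf2-EnR cortices had 0 members called by limma, against 0.117% of all genes, 0 by edgeR and 1 by DESeq2 (Pcdh10). Of all genes, edgeR called 15 and DESeq2 641 here. At an unadjusted p under 0.05 there were 3 (Pcdh10, Pcdh17 and Pcdh18), or 10.7%, against 19.3% of all genes. All 3 are δ2 protocadherins. Non-overlapping libraries were found in 4 members (Cdh8, Cdh18, Pcdh10 and Pcdh18), or 14.3%, against 34.6% of all genes. Both shares were below the background. Pcdh10 (chr3:45378398-45435623, +), which binds the WAVE complex, was at 3705, 3498 and 4016 in Fezf2+/+, at 5003, 3744, 4244 and 5010 in Fezf2-/-, and at 5292 and 4790 in Fezf2-/-; Fezf2-EnR. Pcdh10 had a log2 fold change of 0.43 ± 0.12 in Fezf2-/-; Fezf2-EnR against Fezf2+/+ (adjusted p = 0.139 in limma, 0.025 in DESeq2) and 0.24 with litter as a block. Between Fezf2-/- and Fezf2+/+ it was 0.26 ± 0.10 (adjusted p = 0.385). An exon of 1700027H10Rik overlaps an exon of Pcdh10.

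Several members followed litter. Across all genotypes, the 3 libraries of litter m3 lay above all 6 libraries of litters m1 and m2 in 6 of 28 members (Cdh13, Cdh22, Pcdh1, Pcdh10, Pcdh11x and Pcdh17), or 21.4%, against 4.64% of all genes. They lay below all others in 0 members, against 4.82% of all genes. Litter m3 held no Fezf2+/+ mouse, and it held 2 of the 4 Fezf2-/- mice, so part of the difference between these genotypes cannot be told apart from litter. Pcdh1, a δ1 protocadherin, was at 1827, 1738 and 2038 in Fezf2+/+. Its Fezf2-/- values were 2308 and 1996 in litter m1 and 2809 and 3366 in litter m3, and its Fezf2-/-; Fezf2-EnR values were 2685 in litter m3 and 1844 in litter m2. Its values thus followed litter within each mutant genotype. The log2 fold change of Pcdh1 between Fezf2-/- and Fezf2+/+ was 0.46 ± 0.17 (adjusted p = 0.350), 0.22 with litter as a block and 0.27 within litter m1. Pcdh11x, the X-linked δ1 member, was at 599, 540 and 658 in Fezf2+/+. In Fezf2-/- it was at 719 and 592 in litter m1 and 914 and 919 in litter m3, and in Fezf2-/-; Fezf2-EnR it was at 1020 in litter m3 and 621 in litter m2. For Pcdh11x the log2 difference in Fezf2-/- was 0.37 ± 0.19, and 0.10 with litter as a block. The X-linked Pcdh19, known from an epilepsy of heterozygous carriers, was not in this group, and its log2 fold change was 0.21 ± 0.12 between Fezf2-/- and Fezf2+/+ (adjusted p = 0.582).

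The litter block also lowered the log2 fold change of Pcdh10 from 0.26 to 0.15 and that of Pcdh15 (a tip-link protocadherin) from 0.51 to 0.33. By contrast, that of Cdh10 was 0.31 both with and without the block, and that of Cdh18 was -0.39 without it and -0.40 with it.

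Cdh15 (M-cadherin, best known from muscle; chr8:122847966-122867397, +) was chosen for description after its values were seen. Its Fezf2+/+ libraries were at 38.02, 28.4 and 45.3. In Fezf2-/- it was at 5.45 and 5.21 in litter m1, and at 34.2 and 39.0 in litter m3. The Fezf2-/-; Fezf2-EnR libraries were at 47.8 in litter m3 and 17.5 in litter m2. Low values thus occurred in the Fezf2-/- mice of 1 litter and not in those of the other. Its log2 fold change between Fezf2-/- and Fezf2+/+ was -1.29 ± 0.68 (adjusted p = 0.544). With litter as a block it was -2.26 and passed the threshold (adjusted p = 0.0021), and within litter m1 alone it was -2.42 (adjusted p = 0.0081). The call therefore rests on 2 Fezf2-/- libraries, in which few reads were counted.

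**Figure D4:**
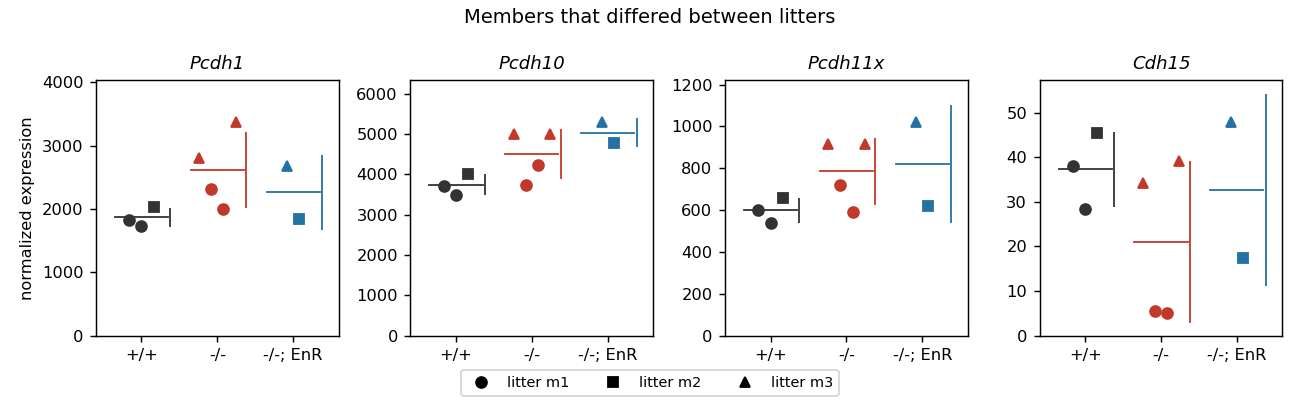
Normalized expression of Pcdh1, Pcdh10, Pcdh11x and Cdh15 in each library, with horizontal lines for the mean, vertical lines for ± SD and marker shapes for litters. For Pcdh1, Pcdh10 and Pcdh11x the 3 libraries of litter m3 are the highest, and for Cdh15 the Fezf2-/- libraries of litter m1, at 5.45 and 5.21, are the lowest.

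**Figure D5:**
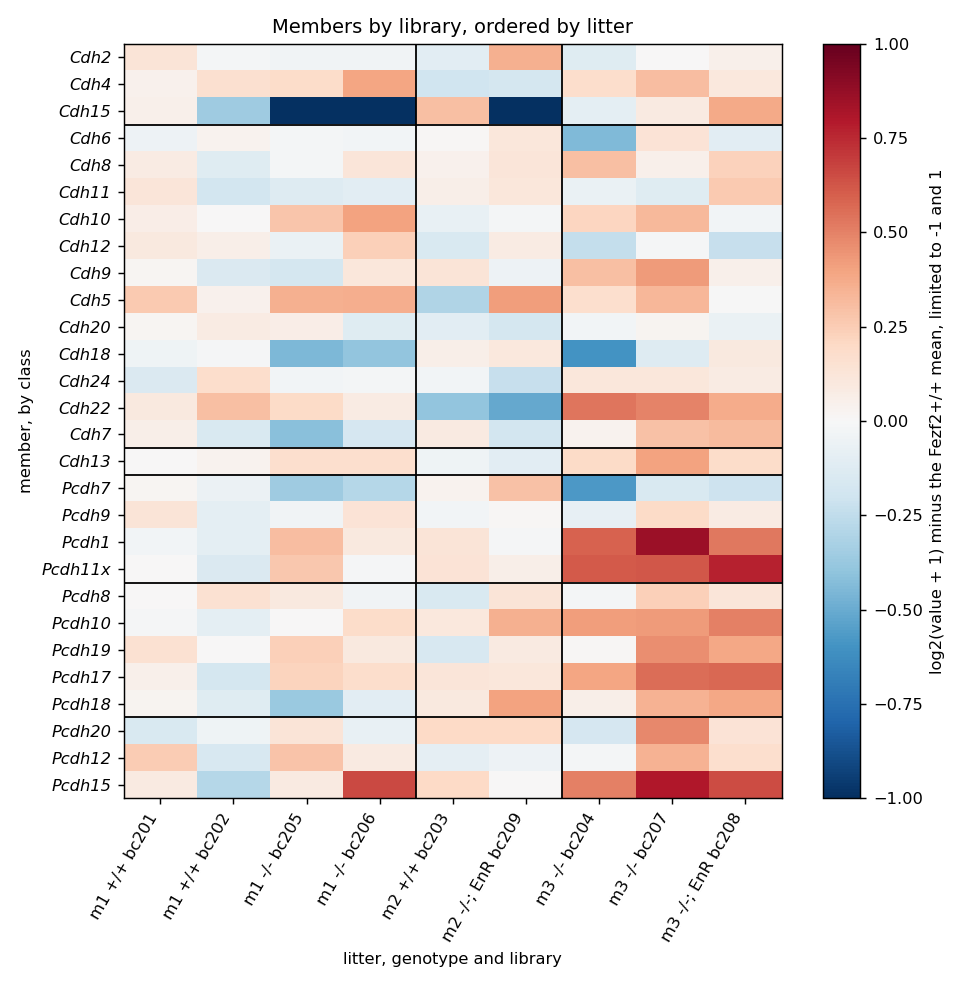
Log2(value + 1) of the 28 tested members in each library minus the mean of the 3 Fezf2+/+ libraries, limited to -1 and 1 in colour, with libraries ordered by litter and members by class. Cdh10 is above the Fezf2+/+ mean in all 4 Fezf2-/- libraries of both litters, whereas Pcdh1 and Pcdh11x are highest in litter m3.

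By class, the log2 fold changes in Fezf2-/- against Fezf2+/+ had medians of -0.05 for the 3 tested type I cadherins, 0.01 for the 12 type II, 0.21 for the 4 δ1 and 0.20 for the 5 δ2 protocadherins. With litter as a block, the δ1 and δ2 medians were 0.07 and 0.09. Between Fezf2-/-; Fezf2-EnR and Fezf2+/+, all 5 δ2, all 4 δ1 and all 3 other protocadherins were positive, against 49.1% of all genes. Their medians were 0.35, 0.15 and 0.17, against -0.01 over all genes. With litter as a block these medians were 0.17, 0.06 and 0.09, and 5 δ2, 3 δ1 and 3 other protocadherins were positive. Without replicate bc208, which is of litter m3, the medians were 0.13, 0.03 and 0.00. Neither the δ1 nor the other protocadherins were then all positive. The remaining type II members gave log2 fold changes in Fezf2-/- of 0.33 for Cdh22, 0.30 for Cdh5, 0.17 for Cdh9, 0.05 for Cdh24, -0.01 for Cdh20, -0.02 for Cdh12, -0.07 for Cdh7 and -0.11 for Cdh11, with adjusted p of 0.471 or more. Pcdh18 was at -0.02. Cdh22, highest in litter m3, was at -0.04 with litter as a block and -0.06 within litter m1.

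The proteins that cadherins work with were examined in the same way. Of 21 catenins and cadherin partners, 20 were tested and 0 were called by limma in any of the 3 comparisons, with medians of 0.03, 0.01 and 0.04 in log2 fold change beside medians of 0.00, 0.00 and -0.01 over all genes. By edgeR, too, 0 were called. DESeq2 called Vcl in Fezf2-/- against Fezf2+/+, Ctnna1 and Ctnnd2 in Fezf2-/-; Fezf2-EnR against Fezf2-/-, and Ctnna1 and Vcl in Fezf2-/-; Fezf2-EnR against Fezf2+/+, all higher. Of all genes, DESeq2 called 315, 450 and 641 in these comparisons. At an unadjusted p under 0.05, 1 was higher and 2 were lower in the first of these comparisons, 3 and 1 in the second, and 4 and 1 in the third. Of all genes, 10.8%, 16.9% and 19.3% passed that threshold in the respective comparisons, in either direction. Ctnnb1 (β-catenin) had a log2 difference of 0.03 ± 0.05 between Fezf2-/- and Fezf2+/+. The closest to the threshold were Vcl (vinculin, which joins α-catenin to actin) in Fezf2-/- against Fezf2+/+, at 0.58 ± 0.13 (adjusted p = 0.075), and Ctnnd2 (δ-catenin, a neuronal p120 relative) in Fezf2-/-; Fezf2-EnR against Fezf2-/-, at 0.37 ± 0.07 (adjusted p = 0.055). Both were singled out after their values were seen.

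The rest of the cadherin superfamily, which takes in the giant Fat and Dachsous cadherins, the Celsr planar polarity cadherins, calsyntenins and desmosomal cadherins, had 22 listed genes, of which 16 were tested and 0 were called by limma or edgeR in any comparison. DESeq2 called Fat1 in Fezf2-/- against Fezf2+/+, and Celsr1, Dchs1 and Fat1 in Fezf2-/-; Fezf2-EnR against Fezf2+/+, all higher. It called 315 and 641 of all genes in the respective comparisons. In Fezf2-/- against Fezf2+/+, 15 of the 16 were positive with a median of 0.24, and 7 were higher and 0 lower at an unadjusted p under 0.05. Of all 16197 genes tested, 8106 were positive with a median of 0.00, and 6.61% were higher and 4.21% lower at that threshold. With litter as a block the median of the 16 was 0.15. The numbers higher and lower were 1 and 2 for Fezf2-/-; Fezf2-EnR against Fezf2-/- (7.87% and 9.06% of all genes), and 4 and 0 against Fezf2+/+ (10.5% and 8.72%). Between Fezf2-/- and Fezf2+/+, Fat1 had the smallest adjusted p of these, with a log2 fold change of 0.39 ± 0.10 (adjusted p = 0.166), and was named after its value was seen.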

How the data were processed

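RNA from P0 cortices was sequenced in 9 libraries. The submitters' processing notes name STAR, Bowtie, DESeq and mm10, and the counting tool, annotation and use of strand are not given in the sources used here. The values the authors deposited are a normalized signal, read counts divided by a library size factor, for 24624 genes. Exon lengths and positions came from GENCODE M21 (GRCm38), which matched 24595 identifiers.

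log2(value + 1) was tested with limma 3.58.1 (R 4.3.3; lmFit, eBayes with trend) over 16197 genes with a mean of at least 10, with all 9 libraries fitted together by genotype, without covariates. A gene was called where its p, adjusted over all genes by Benjamini-Hochberg, was under 0.05. With 2 Fezf2-/-; Fezf2-EnR libraries, the spread is shared across groups. Whole reads (18716575 to 25127623 per library) were recovered from steps in the values, with a tolerance of 0.01, and tested with edgeR 4.0.16 and DESeq2 1.42.0. Recovery is less certain in bc204 and bc208, whose size factors are near 1. No permutation p is given for members named because their groups were separate. The fit was tested on data simulated with log2 changes of -1.5, -1, 1 and 1.5 in 200 genes and no litter effect. It recovered 100% of them, and 4.31% of its calls were unchanged genes. Every simulated gene had the same relative spread between mice, and the changed genes were drawn from those averaging about 50 or more. The 100% therefore does not give the recovery for genes that vary more, such as Pcdh1 (2620 ± 600 in Fezf2-/-, SD), or for scarce ones such as Cdh15. Smaller differences, such as those of the members, were not simulated.

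Members and lists were chosen with earlier results of these data known. Values per library are given for members called, members averaging 50 or more whose Fezf2-/- and Fezf2+/+ libraries are separate, and the 2 most abundant of each class per kb. Others were named after their values were seen. Alternatives were pseudocounts of 0.1 and 10, other filters, rescaling, litter as a block, litter m1 alone, count tests, an unadjusted threshold and each library left out. Omission of bc204 and bc208 together, the 2 libraries highest in striatal markers, was chosen after seeing the data.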

Additional observations from a re-analysis of the deposited data

Results flagged for a closer look

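Cdh13 in Fezf2-/- replicate bc207 was at 6008 normalized reads, while the other 3 Fezf2-/- libraries lay between 5103 and 5200. Its distance to the next library was a larger part of the range than Dixon's 95% limit for 4 samples allows. This was the case for 1 of 28 tested members, and about 1 in 20 groups is expected to pass by chance.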

How the results depend on the processing

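For the 6 members without overlap, the log2 fold changes in Fezf2-/- against Fezf2+/+ kept their sign in all 132 alternatives. As these members were chosen for separate libraries, leaving out a library or changing the pseudocount or filter could not reverse it. The unadjusted threshold repeats the main fold change. In 14 of the alternatives, those at an unadjusted p included, a threshold that the main values missed was passed. In Fezf2-/- against Fezf2+/+, 1 member was called with a pseudocount of 10, TMM rescaling, only the 2 groups compared, edgeR or DESeq2 (Cdh10 in each), 1 with litter as a block (Cdh15), 2 within litter m1 (Cdh15 and Pcdh7), 9 at an unadjusted p under 0.05, and 0 to 1 with a library left out (Cdh10 without bc208 or bc209). In Fezf2-/-; Fezf2-EnR against Fezf2-/-, 1 was called with DESeq2 (Cdh10), 7 unadjusted, and 0 with a Fezf2+/+ or Fezf2-/- library left out. With bc208 or bc209 left out, the transgene group was 1 library, so no calls of members are given for that comparison. In Fezf2-/-; Fezf2-EnR against Fezf2+/+, 1 was called with DESeq2 (Pcdh10) and 3 unadjusted. The cause was not tested. Of all genes, 139 were called in Fezf2-/- against Fezf2+/+, 220 with only the 2 groups, 239 within litter m1, 315 with DESeq2, 1752 unadjusted and 66 to 218 with a library left out. In Fezf2-/-; Fezf2-EnR against Fezf2-/- these were 124, 67 with only the 2 groups, 450 with DESeq2, 788 without bc204 and bc208, 2741 unadjusted and 21 to 1085 with a library left out, the last without bc208. Against Fezf2+/+ they were 19, 10 with a filter at a mean of 50, 11 with only the 2 groups, 32 with litter as a block, 641 with DESeq2, 275 without bc204 and bc208, 3118 unadjusted and 8 to 492 with a library left out. Pairing was by litter, used as a block above, since the labels give no replicate number that the genotypes share. With 1 Fezf2-/-; Fezf2-EnR library left out, the remaining one is assumed to vary like the other groups.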
